A study of Homo sapiens with 24 samples.

Results

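A set of 41 G2/M and mitosis genes was followed through RNA sequencing of MIA PaCa-2 cells, a human pancreatic carcinoma line, with or without induction of the transcription factor C/EBPδ. The genes are a list of known cell division genes, given by symbol and drawn up with earlier results of these data known, and each of the 41 symbols matched 1 of the 60675 gene identifiers in the count table. C/EBPδ-inducible cells carried a Tet-On vector (pCW57) with the CEBPD cDNA and the mVenus fluorophore and were a pool of 3 clones, so part of any difference from CTRL cells may belong to those clones. CTRL cells carried the same vector without the cDNA, and the mCherry fluorophore. Each line was sampled at 0, 8, 24 and 48 h, in 3 wells per group and 24 libraries in all, with doxycycline at 2 µg/mL. The sample labels give this dose for the 0 h wells too, whereas the methods of the study describe untreated cells, and the 0 h wells were taken as the start of the series. No wells at 8, 24 or 48 h are labeled as untreated, so within a line time in culture and doxycycline cannot be told apart. The study asked what induced C/EBPδ does in these cells, and the comparisons here ask how each line changed from 0 h, how the lines differed at each time, and whether their changes differed.

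Cells enter mitosis when cyclin B binds the kinase CDK1 and CDC25 phosphatases remove its inhibitory phosphates, and the kinases PLK1 and Aurora A then drive the assembly of the spindle. Kinetochores built on centromeric chromatin attach chromosomes to the spindle, a checkpoint holds back the anaphase-promoting complex until all are attached, and CDC20, UBE2C and separase then part the sister chromatids before the cell is cleaved. Transcripts of these genes are low in G1 and accumulate in G2, under FOXM1, B-Myb and the MuvB complex, which reads a cell cycle homology region (CHR) near the start site, often beside CCAAT boxes bound by NF-Y. In bulk RNA, fewer cells in G2 or mitosis and less RNA per such cell cannot be told apart.

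The promoter sequences are shown for CDC20, TOP2A and MKI67, whose upstream stretch holds a CHR and 2 or more CCAAT boxes, and for CENPT, the member whose counts moved most. RefSeq windows (GRCh38.p14), from 250 bases before to 50 after a start site, were found for 34 of the 41 members. Both strands were searched for the CHR as TTTGAA or TTCGAA and for CCAAT, elements that overlap at 1 place in MKI67. Of the 34 genes, 25 (73.5%) held a CHR in at least 1 window and 28 (82.4%) a CCAAT box, against 19.5% and 39.7% of 27305 genes with a window. A CHR together with 2 or more CCAAT boxes stood in 15 members (44.1%) and in 2.35% of all genes. In 17 of the 25 members the CHR nearest a start site began within 80 bases before it. Among the 27 replication and G1/S genes with a window, by contrast, 18 held a CCAAT box and 2 a CHR. The 250 bases before the start site are given 5′ to 3′ on the strand of the gene, with CHR and CCAAT letters on either strand in capitals.
CDC20 (chr1:43358731-43358980, plus strand): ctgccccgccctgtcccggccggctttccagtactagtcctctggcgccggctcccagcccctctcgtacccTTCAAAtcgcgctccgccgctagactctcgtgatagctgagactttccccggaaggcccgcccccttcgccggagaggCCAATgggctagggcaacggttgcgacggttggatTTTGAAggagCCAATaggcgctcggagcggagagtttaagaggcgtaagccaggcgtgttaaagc
TOP2A (chr17:40417897-40418146, minus strand): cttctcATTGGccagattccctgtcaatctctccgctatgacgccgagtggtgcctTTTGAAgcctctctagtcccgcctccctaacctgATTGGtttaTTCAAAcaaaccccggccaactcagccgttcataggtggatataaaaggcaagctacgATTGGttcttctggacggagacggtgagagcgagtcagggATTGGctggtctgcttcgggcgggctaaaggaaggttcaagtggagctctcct
MKI67 (chr10:128126424-128126673, minus strand): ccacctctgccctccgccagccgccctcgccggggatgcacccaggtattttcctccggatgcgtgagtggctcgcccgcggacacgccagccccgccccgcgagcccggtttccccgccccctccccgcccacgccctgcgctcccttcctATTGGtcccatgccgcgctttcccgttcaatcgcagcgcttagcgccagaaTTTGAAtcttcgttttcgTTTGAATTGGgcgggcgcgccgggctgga
CENPT (chr16:67847694-67847943, minus strand): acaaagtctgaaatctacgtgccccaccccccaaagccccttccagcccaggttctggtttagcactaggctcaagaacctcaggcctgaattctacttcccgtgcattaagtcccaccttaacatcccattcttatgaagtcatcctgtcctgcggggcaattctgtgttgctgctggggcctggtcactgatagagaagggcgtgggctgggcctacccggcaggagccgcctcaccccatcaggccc
The first 3 stretches each hold 2 CHR matches, with 4 CCAAT boxes in TOP2A and 2 each in CDC20 and MKI67. The window of CENPT held neither, as did those of KIF2C, CENPE and CKAP2. These are matches of letters and not measured binding sites.

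All 41 members passed the filter on low counts in every comparison, and none had fewer than 358 counts in a library. The libraries held 12731237 to 22598595 counts, and the members took 1.24 to 1.33% of them at 0 and 8 h and 1.01 to 1.13% at 48 h. CEBPD, the induced gene, lay at a mean of 1.9 to 4.02 CPM (counts scaled to library size with the TMM method) in the groups of CTRL cells. In C/EBPδ-inducible cells its mean was 21.5 ± 2.35 CPM at 0 h, 249 ± 15.3 at 8 h, 307 ± 12.6 at 24 h and 204 ± 7.15 at 48 h (SD, n = 3). The keratins KRT8, KRT18 and KRT19, which mark pancreatic epithelium, were present in both lines, KRT8 at 1497 to 1592 CPM in CTRL cells and 71.7 to 76.2 CPM in inducible cells at 0 h, while EPCAM stayed at or under 2.29 CPM. Of the immune markers, CD3E was at 0 in all 24 libraries and PTPRC at or under 0.0566 CPM. CD14 reached 1.35 CPM and CD68 2.02 CPM. Of the fibroblast and endothelial markers, COL1A1 reached 1.86 CPM, COL3A1 2.21 CPM and CDH5 2.28 CPM. DCN, LUM, PECAM1 and VWF stayed at or under 0.478 CPM.

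Some libraries stood apart from the replicates of their group along base composition. In CTRL cells at 8 h, replicate 1 differed from the other 2 libraries by a median of 0.114 on the log2 scale over the members, and replicate 3 by 0.103, against 0.019 to 0.037 in the inducible cells at 8 h. The deviation of replicate 1 rose with the GC share of the longest transcript (Spearman's rho 0.91 over 41 members and 0.57 over 16809 genes), and that of replicate 3 fell with it (rho -0.91 and -0.55). In CTRL cells at 48 h, replicates 1 and 2 did the same (rho over members 0.89 and -0.86). CENPE, with 35.4% GC, was at 190 CPM in replicate 1 of CTRL at 8 h and at 251 and 279 in the others, while CDC20, with 57.9% GC, was at 387 against 357 and 358. The genes within a library share its depth and preparation, so these correlations describe the libraries. Counts of calls are therefore also given with an offset for GC share in each library, an alternative chosen after seeing the data.

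**Figure D1:**
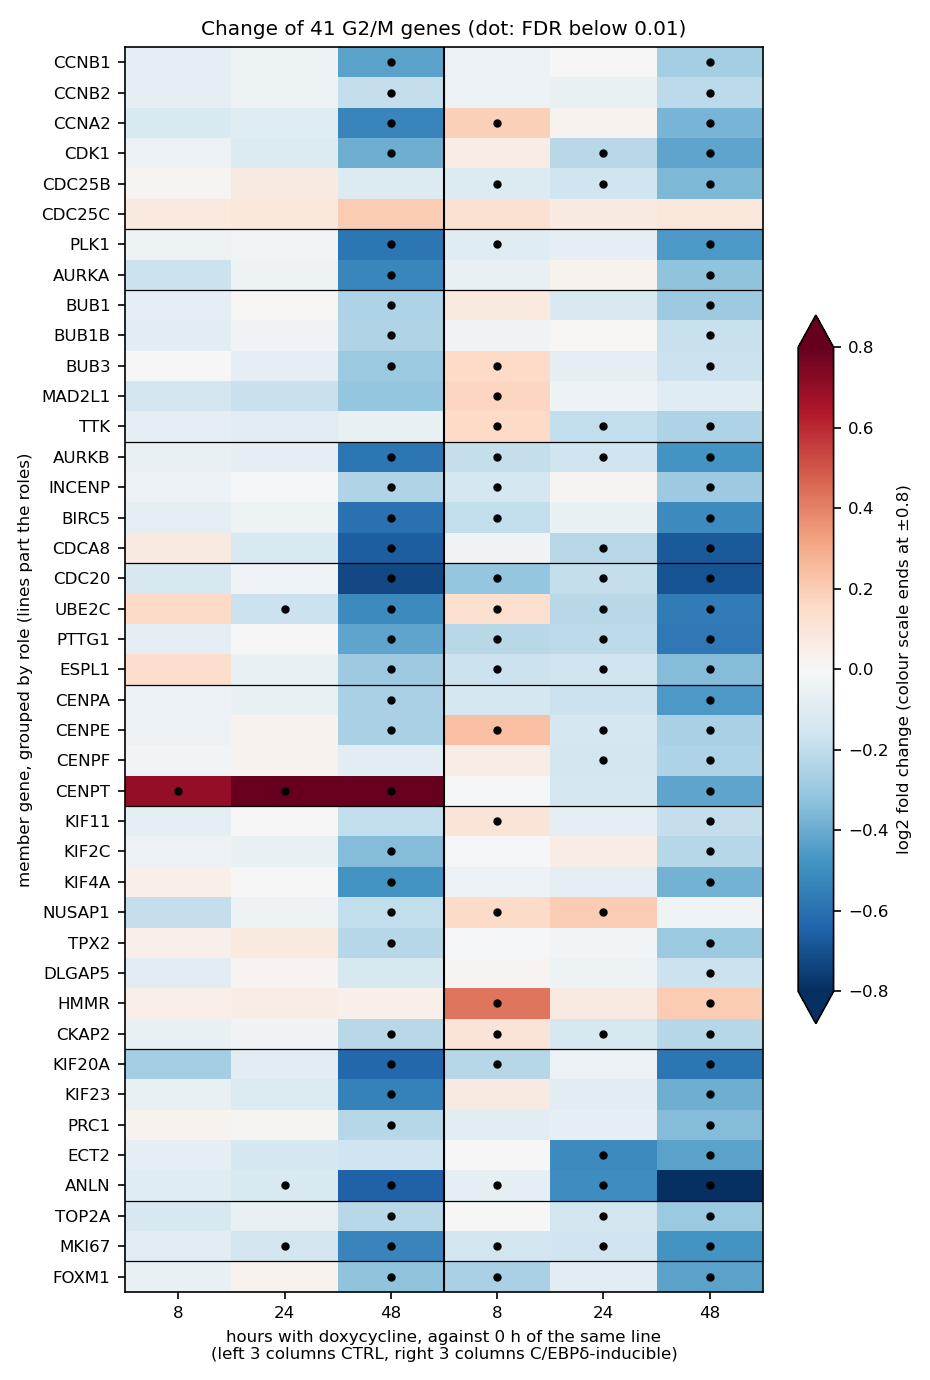
Change of each of the 41 members against 0 h of the same line, as edgeR log2 fold change (color, ending at ±0.8), in CTRL cells (left 3 columns) and C/EBPδ-inducible cells (right 3 columns) at 8, 24 and 48 h; a dot marks an FDR below 0.01. The 48 h columns are mostly blue in both lines, the 8 h column of the inducible cells mixes red and blue, and CENPT is dark red in CTRL cells, where its values of 1.89 and 2.22 lie beyond the scale.

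The broadest change came at 48 h and was shared by both lines. In CTRL cells 31 members were lower and 1, CENPT, higher than at 0 h at an FDR of 0.01 (edgeR quasi-likelihood test, two-sided, Benjamini-Hochberg over all genes), while 14.8% of all 15294 genes tested were called lower and 15.2% higher (30.1% in all). In inducible cells 37 members were lower and 1, HMMR, higher, while 19.6% of 15394 genes were called lower and 19.2% higher (38.8% in all). The median log2 fold change of the members was -0.29 in CTRL and -0.35 in inducible cells, and that of all genes tested was 0.009 and 0.004. The 3 libraries at 48 h did not overlap those at 0 h for 38 members in CTRL cells and for 38 in inducible cells, against 52.7% and 55.5% of all genes. With the GC offset 36 and 38 members were lower. Of the 31 members lower in CTRL cells, 30 were among the 37 lower in inducible cells.

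CDC20, the activator of the anaphase-promoting complex, fell most in CTRL cells. It was at 400, 417 and 412 CPM in the 3 CTRL libraries at 0 h and at 260, 238 and 252 CPM at 48 h. In inducible cells it was at 449, 452 and 459 CPM at 0 h and at 297, 271 and 280 CPM at 48 h. The libraries of the 2 times did not overlap in either line, and CDC20 fell by 0.72 (SE 0.0452, adjusted p = 2.92e-07) in CTRL and by 0.69 (SE 0.0318, adjusted p = 1.26e-15) in inducible cells on the log2 scale (edgeR). The contractile ring protein ANLN had the largest fall in inducible cells. It was at 725, 721 and 720.1 CPM at 0 h and at 410, 406 and 420 CPM at 48 h, a fall by 0.82 on the log2 scale (SE 0.0262, edgeR adjusted p = 5.82e-19). In CTRL cells ANLN went from 975, 999 and 983 CPM to 593, 665 and 630 CPM, and fell by 0.65 (SE 0.04, edgeR adjusted p = 2.50e-07).

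Of the 6 genes for cyclins, CDK1 and CDC25 phosphatases, 4 were lower in CTRL and 5 in inducible cells at 48 h. Both entry kinases, PLK1 and AURKA, were lower in each line. Among all genes, 14.8% were called lower in CTRL and 19.6% in inducible cells. CCNB1, which encodes cyclin B1, was at 478, 487 and 481 CPM in CTRL cells at 0 h and at 351, 357 and 367 CPM at 48 h. In inducible cells CCNB1 went from 399, 389 and 398 CPM to 325, 327 and 340 CPM. CCNB1 fell by 0.43 (SE 0.0366, edgeR adjusted p = 2.51e-06) and 0.27 (SE 0.0284, edgeR adjusted p = 1.33e-08) in the 2 lines, with no overlap between times. Its partner kinase CDK1 went from 160, 142 and 151 CPM to 106, 126 and 117 CPM in CTRL cells. In inducible cells CDK1 went from 147, 155 and 158 CPM to 113, 114 and 119 CPM. The fall of CDK1 was 0.39 in CTRL (SE 0.0637, edgeR adjusted p = 3.71e-04) and 0.42 in inducible cells (SE 0.0356, edgeR adjusted p = 2.56e-10).

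PLK1, a kinase of mitotic entry and spindle assembly, was at 185, 190.0 and 190 CPM in CTRL cells at 0 h and at 129, 127 and 123 CPM at 48 h. In inducible cells PLK1 was at 197, 200 and 205 CPM at 0 h and at 149, 146 and 146 CPM at 48 h. All libraries at 48 h were below all those at 0 h of their line, with log2 falls of 0.58 (SE 0.044, edgeR adjusted p = 1.05e-06) and 0.46 (SE 0.0321, edgeR adjusted p = 5.55e-12). AURKA, the Aurora A kinase of the centrosome, went from 240.3, 249 and 242 CPM to 173, 170.1 and 170.3 CPM in CTRL cells. In inducible cells AURKA went from 203, 203 and 203 CPM to 163, 166 and 164 CPM. Its log2 falls were 0.52 (SE 0.0412, edgeR adjusted p = 1.67e-06) and 0.32 (SE 0.0307, edgeR adjusted p = 2.98e-09). The difference between these changes was 0.19 (95% interval 0.08 to 0.30) and missed the threshold (edgeR adjusted p = 0.0115).

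MKI67, the Ki-67 proliferation marker that coats mitotic chromosomes, was the member with the most counts. It was at 1951, 2061 and 2040 CPM in CTRL cells at 0 h and at 1415, 1421 and 1382 CPM at 48 h. In inducible cells MKI67 was at 2091, 2075 and 2036 CPM at 0 h and at 1505, 1521 and 1446 CPM at 48 h. It fell by 0.53 (SE 0.0318, edgeR adjusted p = 2.23e-07) and by 0.48 (SE 0.0252, edgeR adjusted p = 1.76e-14), and the difference between these changes was 0.03 with a 95% interval of -0.06 to 0.13. TOP2A, the topoisomerase that untangles sister chromatids, changed less. It went from 1712, 1673 and 1655 CPM to 1380.3, 1487 and 1485 CPM in CTRL cells, a fall by 0.22 (SE 0.0337, edgeR adjusted p = 2.46e-04). In inducible cells TOP2A went from 1436, 1400 and 1441 CPM to 1163, 1157 and 1170.0 CPM, a fall by 0.30 (SE 0.0243, edgeR adjusted p = 7.42e-11). FOXM1, the transcription factor of the G2/M program, was at 367, 382 and 377 CPM in CTRL cells at 0 h and at 315, 296 and 293 CPM at 48 h. In inducible cells FOXM1 went from 389, 400 and 393 CPM to 305, 290.3 and 287 CPM. It fell by 0.32 (SE 0.0433, edgeR adjusted p = 8.51e-05) and 0.43 (SE 0.0299, edgeR adjusted p = 5.10e-12).

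Between these times the same genes moved less. CCNB1 lay at 437 to 467 CPM at 8 h and 458 to 473 CPM at 24 h in CTRL cells, and at 373 to 394 CPM and 387 to 404 CPM in inducible cells. CDK1 lay at 121 to 168 CPM at 8 h and 132 to 144 CPM at 24 h in CTRL cells, and at 159 to 162 CPM and 127 to 135 CPM in inducible cells. PLK1 lay at 172 to 189 CPM at 8 h and 184 to 188 CPM at 24 h in CTRL cells, and at 180.5 to 193 CPM and 182 to 200.2 CPM in inducible cells. Of these 3 genes, CDK1 was called lower at 24 h in inducible cells and PLK1 at 8 h. CDC20 lay at 357 to 387 CPM at 8 h and 393 to 406 CPM at 24 h in CTRL cells, and at 359 to 379 CPM and 388 to 407 CPM in inducible cells. AURKA lay at 208 to 219 CPM at 8 h and 231 to 238 CPM at 24 h in CTRL cells, and at 195 to 197 CPM and 202 to 212 CPM in inducible cells. FOXM1 lay at 344 to 373 CPM at 8 h and 374 to 387 CPM at 24 h in CTRL cells, and at 327 to 331 CPM and 366 to 373 CPM in inducible cells. CDC20 was called lower in inducible cells at both times and FOXM1 at 8 h, while AURKA was called at neither. TOP2A lay at 1386 to 1641 CPM at 8 h and 1577 to 1639 CPM at 24 h in CTRL cells, and at 1399 to 1449.8 CPM and 1241 to 1319 CPM in inducible cells. MKI67 lay at 1809 to 1939 CPM at 8 h and 1769 to 1858 CPM at 24 h in CTRL cells, and at 1839 to 1933 CPM and 1783 to 1906 CPM in inducible cells. MKI67 was called lower at 24 h in both lines and at 8 h in inducible cells, and TOP2A at 24 h in inducible cells.

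By role, every group held members that fell at 48 h. All 4 members of the chromosomal passenger complex, which corrects faulty attachments, were called lower in both lines, with medians of -0.59 in CTRL and -0.50 in inducible cells. Its subunit CDCA8 (borealin) fell by 0.66 and 0.67, and BIRC5 (survivin) by 0.60 and 0.51. The 4 genes of anaphase promotion and separase were also lower in both lines (medians -0.46 and -0.57), with PTTG1, the securin that inhibits separase, lower by 0.57 in inducible cells. Of the 5 cytokinesis genes, 4 were lower in CTRL and 5 in inducible cells, and the kinesin KIF20A fell by 0.63 and 0.58. Of the 8 spindle motors and microtubule proteins, 5 were lower in CTRL and 6 in inducible cells, with medians of -0.21 in each. Of the 5 checkpoint genes, 3 and 4 were lower. Beside these counts, the shares of all genes called lower at 48 h were 14.8% in CTRL and 19.6% in inducible cells.

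A few members did not follow. HMMR, which encodes a microtubule protein of the spindle pole, was at 162, 174 and 161 CPM in inducible cells at 0 h and at 181, 195 and 201 CPM at 48 h, a rise by 0.20 (SE 0.0372, edgeR adjusted p = 5.77e-05). In CTRL cells HMMR was at 237, 208 and 224 CPM at 0 h and at 199.9, 253 and 241 CPM at 48 h, with overlapping libraries and a change of 0.04 (edgeR adjusted p = 0.668). The phosphatase gene CDC25C (changes of 0.20 and 0.09) and the checkpoint gene MAD2L1 (-0.31 and -0.10) passed the test in neither line. CDC25B, TTK, CENPF, KIF11, DLGAP5 and ECT2 were called lower in inducible cells and not in CTRL cells. Among these 6 the difference between the changes was called at 48 h for CDC25B and CENPF. Over the members rho between the 48 h change and GC share was -0.30 in CTRL and -0.47 in inducible cells. In CTRL cells the median GC share was 47.2% for members called lower and 39.2% for those not called. In inducible cells these medians were 46.6% and 46.3%. The part of base composition in these exceptions was not tested.

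**Figure D2:**
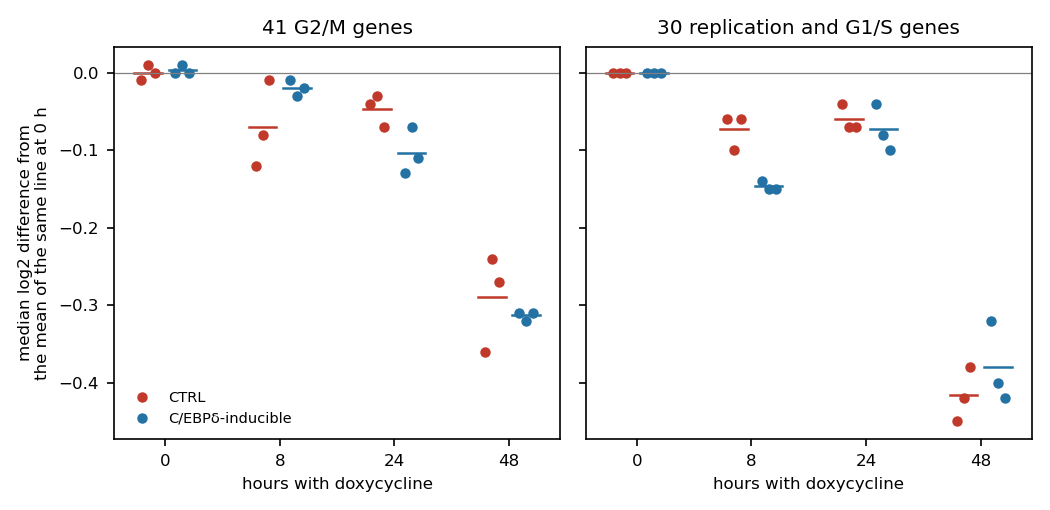
Median over the 41 members (left) and over 30 DNA replication and G1/S genes (right) of the log2 difference of each library from the mean of the same line at 0 h, against hours with doxycycline; points are libraries, short lines the mean of 3. At 48 h the members lay at -0.24 to -0.36 in CTRL and -0.31 to -0.32 in C/EBPδ-inducible cells.

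At 24 h the lines parted for a small group of genes. In CTRL cells 3 members (UBE2C, ANLN and MKI67) were lower and 1, CENPT, was higher, with 3.29% and 2.84% of all 15196 genes called lower and higher (6.13% in all). In inducible cells 16 members were lower and 1, NUSAP1, higher, with 8.12% and 7.36% of 15560 genes called in these directions (15.5% in all). The median change of the members was -0.04 in CTRL and -0.09 in inducible cells. Without replicate 3 of the inducible cells at 24 h the 17 calls fell to 11, and with the GC offset 20 members were lower in inducible cells and 10 in CTRL cells. The 4 calls in CTRL cells became 2 without replicate 3 at 0 h or replicate 3 at 24 h, 6 without replicate 1 at 0 h, and 1, CENPT, in the analysis of variance. Scaling by library totals in place of TMM gave 2 lower and 2 higher in CTRL cells.

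The largest falls at 24 h in inducible cells were those of 2 genes of cell cleavage. ECT2, the exchange factor that activates RhoA at the division plane, was at 278, 276 and 271 CPM at 0 h and at 186, 198 and 193 CPM at 24 h, a fall by 0.51 (SE 0.0313, edgeR adjusted p = 4.58e-12). In CTRL cells ECT2 went from 258, 228 and 244 CPM to 226, 223 and 212 CPM, a change of -0.14 (SE 0.0379, edgeR adjusted p = 0.0186, and 0.0094 with the replicate number as a block). ANLN, whose product links RhoA, actin and septins in the ring, went from 725, 721 and 720.1 CPM to 490.0, 537 and 499 CPM in inducible cells, a fall by 0.50 (SE 0.0301, edgeR adjusted p = 3.53e-12). In CTRL cells ANLN went from 975, 999 and 983 CPM to 923, 909 and 876 CPM, a fall by 0.12 (SE 0.0248, edgeR adjusted p = 0.00193). Both genes thus dropped further in inducible cells, while KIF20A, KIF23 and PRC1, the other cytokinesis members, were called in neither line.

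The test of the difference between the changes (the interaction of line and time) called 6 members at 24 h, 5 with a lower and 1 with a higher change in inducible cells, with 2.95% and 2.88% of 16224 genes called in these directions. Library totals gave 7 lower and 0 higher, and the GC offset 9 and 0. ECT2 and ANLN each differed by -0.37 (SE 0.0513 and 0.0404, edgeR adjusted p = 1.42e-05 and 3.10e-07), and ANLN remained called under every alternative setting tried, whereas ECT2 was lost in the fit of all 24 libraries (adjusted p = 0.0484) and in the analysis of variance. CDC25B, the phosphatase that starts CDK1 activation, differed by -0.23 (SE 0.0444, edgeR adjusted p = 9.52e-04). It stood at 284, 285 and 288 CPM in CTRL cells at 0 h and 294, 299 and 305 CPM at 24 h, and at 167, 177 and 174 CPM and then 161, 150.2 and 152 CPM in inducible cells. CENPF, a large kinetochore protein, differed by -0.18 (SE 0.0368, edgeR adjusted p = 0.00153). NUSAP1, a spindle-binding protein, differed by 0.24 (SE 0.0606, edgeR adjusted p = 0.00943), but 86.8% of its exon bases are shared with other annotated genes and it was no longer called in most refits. CENPT, described further below, differed by -2.03.

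At 48 h the same test called 3 members, CENPT (-2.64), CDC25B (-0.26, SE 0.0612, edgeR adjusted p = 0.00971) and CENPF (-0.17, SE 0.0409, edgeR adjusted p = 0.00993), all lower in inducible cells, with 2.66% of 16306 genes called lower and 2.8% higher. DESeq2 with its size factors gave 2 lower and 1 higher, and the GC offset 4 and 3. CDC25B and CENPF were close to the cut-off and were each lost in most fits that left out 1 library. For ANLN the difference at 48 h was -0.18 (95% interval -0.29 to -0.07, edgeR adjusted p = 0.025), and for CDC20 it was 0.01 (-0.11 to 0.14).

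At 8 h the 2 lines gave different counts, and the inducible cells gave calls in both directions. In CTRL cells CENPT was the 1 member called, higher, with 0.767% and 0.879% of 15253 genes called lower and higher (1.65% in all). By edgeR 8 of the 41 members had an unadjusted p under 0.05 in CTRL cells, and the share of all genes at that cut-off was not computed. There DESeq2 gave 1 lower and 1 higher, and the GC offset 4 and 2. In inducible cells 12 members were lower and 10 higher, with 16.2% and 14.8% of 15395 genes called in these directions. The balance of directions turned with the scaling, since library totals gave 8 lower and 13 higher. The libraries of 8 and 0 h did not overlap for 29 members, against 49.7% of all genes. CDC20 was at 379, 359 and 368 CPM at 8 h, below the 3 libraries at 0 h, and fell by 0.31 (SE 0.0259, edgeR adjusted p = 1.25e-09). FOXM1 was at 330, 331 and 327 CPM and fell by 0.26 (SE 0.0241, edgeR adjusted p = 4.11e-09). HMMR was at 228, 220 and 224 CPM and rose by 0.43 (SE 0.0314, edgeR adjusted p = 1.04e-10). CENPE, the kinesin that moves chromosomes to the spindle equator, was at 261, 256 and 255 CPM at 8 h against 217, 218 and 214 CPM at 0 h and rose by 0.24 (SE 0.0268, edgeR adjusted p = 8.76e-08).

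These 8 h changes followed base composition. The 10 higher members had a median transcript GC share of 40% (35.4 to 50%) and the 12 lower ones of 55.7% (39.8 to 59.1%). Over the members rho between the change and GC share was -0.69, and over 15210 genes it was -0.47, against -0.02 over all genes in CTRL cells. With the GC offset 15 members were lower and 3 (NUSAP1, UBE2C and HMMR) higher, and 11 of the 22 members were called in both fits, CKAP2 in opposite directions. CDC20, FOXM1, MKI67, KIF20A, PTTG1, BIRC5 and ANLN were lower in both fits, whereas PLK1, CDC25B, INCENP, KIF11 and CKAP2 took the other sign. HMMR still rose, by 0.21, whereas the change of CENPE was 0.01. Whether base composition accounts for the changes was not tested. The difference between the lines' changes at 8 h was called for CENPT alone (-0.69), with 0.783% and 0.906% of 16228 genes called lower and higher. By edgeR 17 members had an unadjusted p under 0.05, a cut-off at which the share of all genes was not computed. Leaving out replicate 3 of CTRL at 8 h gave 11 calls among the members and 1197 among 16645 genes. DESeq2 and the GC offset each gave 1 lower and 1 higher. For this difference between changes, rho with GC share was -0.80 over the members and -0.44 over 16030 genes. For the difference between the lines at 8 h it was -0.32 over the members and -0.29 over 15380 genes.

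**Figure D3:**
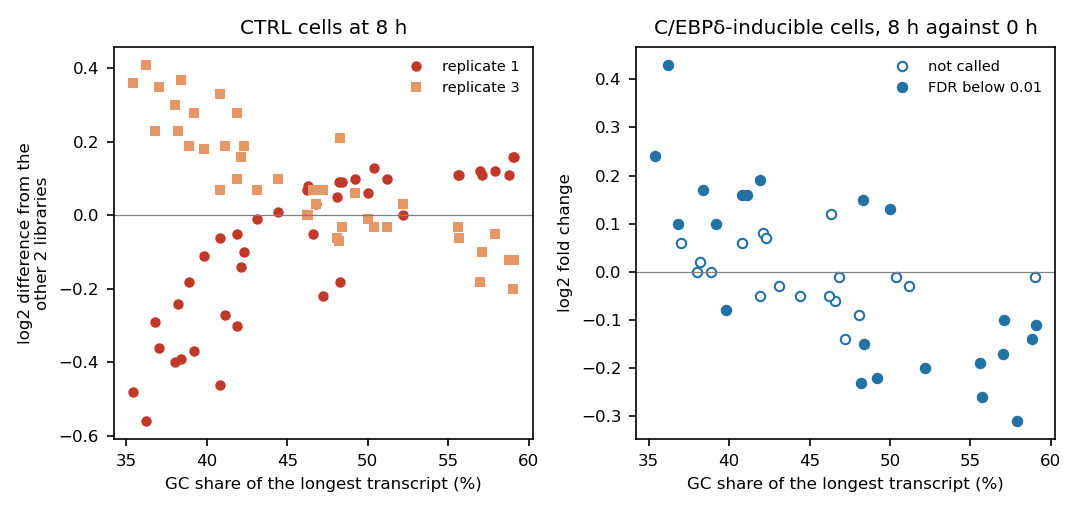
GC share of the longest transcript of each member (x axis, percent) against the log2 difference of replicates 1 and 3 of CTRL cells at 8 h from the other 2 libraries (left) and against the edgeR log2 fold change of C/EBPδ-inducible cells from 0 to 8 h (right, filled at an FDR below 0.01). Replicate 1 rises and replicate 3 falls with GC share, and the change at 8 h falls with it (rho -0.69).

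The lines already differed at 0 h. At that time 16 members were lower and 7 higher in inducible than in CTRL cells, with 24% and 20.1% of 15317 genes called lower and higher. With library totals the members gave 14 lower and 13 higher, with a median of -0.00, and with the GC offset 16 and 11. The median difference was -0.06, and the libraries of the lines did not overlap for 31 members, 19 of them lower, against 60.2% and 29.8% of all genes. At 8 h 9 members were lower and 4 higher (17.5% and 14.4% of 15561 genes). At 24 h 21 were lower and 5 higher (25.3% and 21.7% of 15700 genes, 47.1% in all), and at 48 h 15 and 6 (20.7% and 17.7% of 15592 genes). Libraries did not overlap for 23 members at 8 h, 30 at 24 h and 30 at 48 h, against 54.4%, 61.8% and 57.1% of all genes. Without replicate 1 of CTRL at 8 h the count at that time was 18, and without replicate 2 of the inducible cells it was 7.

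Certain genes kept their difference at each time. CDC25B, CDCA8, CENPA, TPX2, CKAP2, KIF20A and ANLN were called lower in inducible cells at all 4 times, and CCNA2 higher. The share of all genes called at all 4 times was not computed. At 0, 8, 24 and 48 h, 44.1%, 31.9%, 47.1% and 38.4% of all genes were called in either direction. CKAP2, a microtubule and spindle protein, was at 404, 384 and 395 CPM in CTRL and at 219, 225 and 214 CPM in inducible cells at 0 h. The groups lay far apart, with a difference of -0.85 at 0 h (SE 0.0294, edgeR adjusted p = 3.43e-15), -0.65 at 8 h, -0.95 at 24 h and -0.85 at 48 h. For CDC25B the differences were -0.73, -0.83, -0.96 and -0.97 in that order of times, and for TPX2, the activator of Aurora A on the spindle, they were -0.52, -0.52, -0.61 and -0.58. CENPA, the centromeric histone, differed by -0.28, -0.33, -0.38 and -0.46. Cyclin A2, encoded by CCNA2, was at 138, 135 and 130.1 CPM in CTRL and 157, 165 and 160 CPM in inducible cells at 0 h, and the gene was higher by 0.25 (SE 0.0338, edgeR adjusted p = 2.94e-06), 0.60, 0.39 and 0.43 at the 4 times. ESPL1, which encodes separase, was higher by 0.42 at 0 h (SE 0.0352, edgeR adjusted p = 4.61e-09).

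CCNB2, CDK1, CDC25C, BIRC5, KIF23, MKI67 and FOXM1 were called at no time, a pattern whose share over all genes was not computed. For MKI67 the differences were 0.03 (95% interval -0.04 to 0.09) at 0 h, 0.02 (-0.06 to 0.10) at 24 h and 0.08 (-0.01 to 0.17) at 48 h, so the proliferation marker differed by little while other members of the set differed by up to 0.97 apart from CENPT. NUSAP1 and ECT2 were lower at 1 time and higher at another: ECT2 was higher by 0.17 at 0 h and lower by 0.20 at 24 h in inducible cells.

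**Figure D4:**
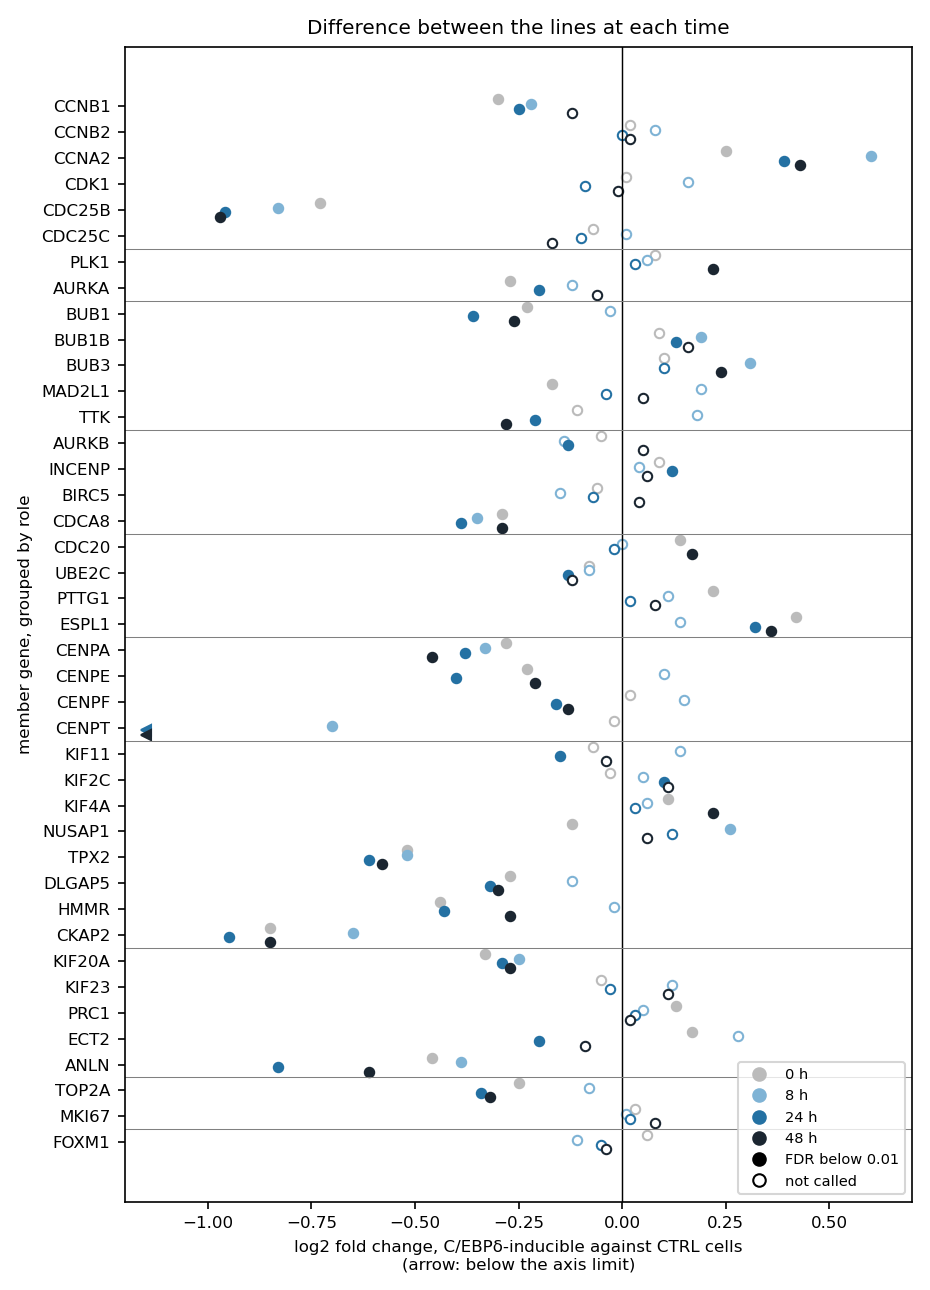
Difference between C/EBPδ-inducible and CTRL cells for each member at 0, 8, 24 and 48 h as edgeR log2 fold change; filled points have an FDR below 0.01 and arrows lie below the axis limit. CDC25B, TPX2, CKAP2 and ANLN lie to the left at every time and CCNA2 to the right, while MKI67 and FOXM1 stay near 0.

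CENPT departed from every other member. It encodes a subunit of the constitutive centromere-associated network that links centromeric DNA to the outer kinetochore. At 0 h it was at 45.1, 49.8 and 49.3 CPM in CTRL and at 46.2, 48.5 and 48.2 CPM in inducible cells, a difference of -0.02 (95% interval -0.16 to 0.12). In CTRL cells it was at 82.5, 77.7 and 69.7 CPM at 8 h, at 177, 171 and 187 CPM at 24 h and at 251, 209 and 211 CPM at 48 h. The libraries of successive times did not overlap, and CENPT rose by 0.70 (SE 0.0749, adjusted p = 4.29e-04), 1.89 (SE 0.0451, adjusted p = 1.66e-16) and 2.22 (SE 0.0777, adjusted p = 4.39e-09) on the log2 scale against 0 h (edgeR), or 4.64-fold at 48 h. In inducible cells it was at 46.7, 49.1 and 46.4 CPM at 8 h, at 42.2, 45.3 and 41.8 CPM at 24 h and at 35.8, 36.5 and 35.6 CPM at 48 h. Its fall of 0.42 at 48 h (SE 0.0484, edgeR adjusted p = 6.86e-08) resembled those of other members, and CENPT was the only member called in opposite directions in the 2 lines. The difference between the changes was -0.69 (SE 0.0884, adjusted p = 2.96e-04), -2.03 (SE 0.0691, adjusted p = 1.08e-16) and -2.64 (SE 0.095, adjusted p = 1.03e-12) at 8, 24 and 48 h (edgeR).

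The counts of CENPT have a limit in the annotation. The gene lies on chromosome 16 at 67828157 to 67847811 on the minus strand (GENCODE 44, GRCh38), and 20.2% of its 5660 exon bases overlap TSNAXIP1, THAP11 or NUTF2 on the plus strand. The strand setting of the counting is not given in the sources used here, so reads of overlapping genes cannot be told apart. THAP11, a transcription factor gene, went the other way in CTRL cells. It was at 25.1, 26.3 and 29 CPM at 0 h and at 12.3, 10.6 and 12.3 CPM at 48 h, a fall by 1.19 (SE 0.0909, edgeR adjusted p = 1.13e-06). In inducible cells THAP11 was at 32.4, 32 and 33.4 CPM at 0 h and at 29.4, 27.1 and 29.1 CPM at 48 h, a fall by 0.21 (SE 0.0565, edgeR adjusted p = 0.00358). Of the 11 genes tested within 100 kb of CENPT, a window chosen after its values were seen, none was higher and 4 were lower in CTRL cells at 48 h, with changes of -1.19 to 0.43 (edgeR). None of the 14 partners of CENPT in the inner kinetochore network was higher in CTRL cells at 24 or 48 h, while 8 were lower at 48 h (median -0.25, edgeR). Of all genes tested in CTRL cells, 2.84% were called higher at 24 h, and 15.2% higher and 14.8% lower at 48 h.

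**Figure D5:**
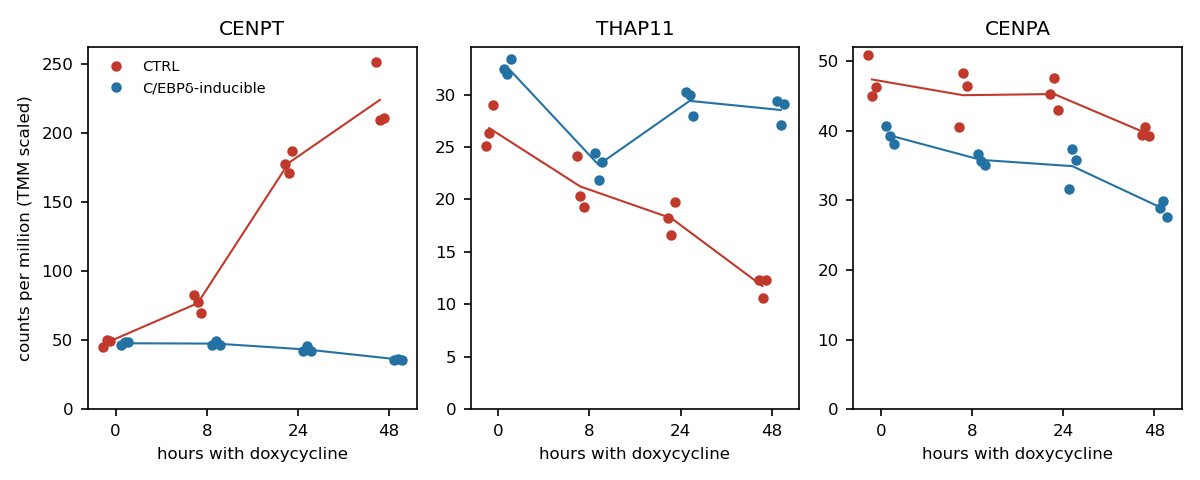
TMM-scaled CPM of CENPT, of THAP11 (which overlaps CENPT on the other strand) and of CENPA in each library, against hours with doxycycline; points are libraries and lines join the means of 3. CENPT rises in CTRL cells from 45.1 to 49.8 CPM at 0 h to 209 to 251 CPM at 48 h and stays at or under 49.1 CPM in C/EBPδ-inducible cells.

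Other genes of the pathway, from lists that share no member with the 41, gave a similar picture at 48 h. Of 32 further G2/M genes, 21 were lower and none higher in CTRL cells (median -0.32) and 27 were lower and none higher in inducible cells (median -0.34). PKMYT1, the kinase that holds CDK1 inactive, fell by 0.76 and 0.73. Of 16 outer kinetochore genes, 7 were lower and 1 higher in CTRL and 10 lower and 1 higher in inducible cells. Of 11 condensin and cohesion genes, 7 and 8 were lower and none was higher. Beside these counts, 14.8% of all genes tested were called lower and 15.2% higher in CTRL cells. In inducible cells the shares were 19.6% and 19.2%.

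Of 16 MuvB, B-Myb and DREAM factors, which regulate these genes, 5 were lower and 1 higher in CTRL cells, and 9 lower and 2 higher in inducible cells at 48 h, beside 30.1% and 38.8% of all genes called in either direction. MYBL1, a relative of B-Myb, fell by 1.03 at 24 h and by 1.14 at 48 h in inducible cells, and the difference between the lines' changes was -0.88 at 24 h and -0.82 at 48 h. It was also lower by 1.00 in inducible cells at 0 h. Of 16 genes of the anaphase-promoting complex and its regulators, 5 were lower and 2 higher in CTRL, and 5 lower and 1 higher in inducible cells at 48 h, beside the same 30.1% and 38.8% of all genes. FBXO5, which inhibits that complex, fell by 0.63 and 0.72.

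The 30 DNA replication and G1/S genes also fell at 48 h, 25 in CTRL (median -0.42) and 26 in inducible cells (median -0.39), with none higher. Of all genes tested, 14.8% were called lower in CTRL and 19.6% in inducible cells at 48 h. The fall at 48 h was not limited to genes of G2 and mitosis. Between the lines 18 of these 30 genes were higher and 7 lower in inducible cells at 0 h (median 0.19), 9 and 6 at 8 h (median 0.08), 16 and 8 at 24 h (median 0.15) and 17 and 4 at 48 h (median 0.20). E2F2 was higher by 1.18 at 0 h. Beside these, the medians of the members were -0.06, 0.01, -0.13 and -0.04, and the difference between the lists was not tested. Of all genes tested, 20.1%, 14.4%, 21.7% and 17.7% were called higher in inducible cells at the 4 times. The shares called lower were 24%, 17.5%, 25.3% and 20.7%.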

How the data were processed

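RNA depleted of ribosomal RNA was sequenced from 24 libraries, in 8 groups of 3. Per the methods and the labels, reads were trimmed with Trimmomatic, aligned to GRCh38 (Ensembl 84) with Hisat2 and counted per gene with HTSeq, and the authors deposited the counts without normalization or pooling. The submitters' processing notes name Trimmomatic 0.36, and tool versions differ between them and the methods. Labels do not say that wells were separate cultures, so p values measure the spread between these wells, which may be technical.

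Counts were scaled with TMM and compared in edgeR 4.0.16 (R 4.3.3; glmQLFit and glmQLFTest), only the groups at issue entering each fit, after filterByExpr, with Benjamini-Hochberg adjustment over all genes tested and an FDR of 0.01. The 13 comparisons were each time against 0 h in each line, the lines at each time, and the interaction at 8, 24 and 48 h; those of one line share its 0 h libraries. Each SE was worked back from the edgeR log2 fold change and its F statistic. The 95% intervals use this SE and a t quantile with degrees of freedom of libraries less groups. They need not match the edgeR p values, which share information across genes. CPM uses the TMM factors of all 24 libraries. GC share and coordinates are from GENCODE 44, promoters from RefSeq. Alternatives were DESeq2 1.42.0, library totals, other filters, all libraries in one fit, a replicate block, an analysis of variance on log2(CPM + 1), leaving out each library and a GC offset. Equal replicate numbers deviated together most in CTRL cells at 24 h and 0 h (correlations of 0.108, 0.12 and 0.128). In some other comparisons all 3 correlations were positive but smaller, at most 0.0784 (between the lines at 8 h). No 2 libraries agreed within sampling noise (chi-square per gene of 1.64 to 16.7). With 3 against 3 libraries an exact permutation test cannot go below 0.1, so single genes rest on the model across genes. On simulated counts for CTRL cells at 48 h against 0 h (15294 genes), 98% of 50 genes changed 1.5-fold and 14% of 50 changed 1.2-fold were recovered. For the interaction at 24 h (16224 genes) these shares were 100% and 40%. The changed genes were drawn from genes with high counts. The simulated libraries held no deviation along GC share, unlike those of CTRL cells at 48 h, so recovery in the data may differ.

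The members and gene lists were chosen with earlier results of these data known. Any member could be named. CCNB1, CDK1, PLK1, CDC20, AURKA, TOP2A, MKI67, FOXM1 and CENPT (index genes) were described by library, with the 5 largest called changes of each comparison, and at most 3 called genes of any other list. Reads of KIF4A and PTTG1 may be split with their copies KIF4B, PTTG2 and PTTG3P. Over 10% of exon bases were shared with other genes in 6 members. Beside CENPT and NUSAP1 these were PRC1 (61.9%), FOXM1 (15.9%), PLK1 (12.8%) and BUB1B (10.2%). For FOXM1 and PLK1 the other genes lie on the other strand, and the strand setting of the counting is not given.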

Additional observations from a re-analysis of the deposited data

Results flagged for a closer look

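For 6 members the change from 0 h differed between the lines by the interaction test of edgeR at an FDR of 0.01. CENPT differed at 8, 24 and 48 h by -0.69, -2.03 and -2.64 on the log2 scale, the change of C/EBPδ-inducible minus that of CTRL cells. CDC25B differed by -0.23 at 24 h and -0.26 at 48 h, and CENPF by -0.18 at 24 h and -0.17 at 48 h. At 24 h ECT2 and ANLN each differed by -0.37 and NUSAP1 by 0.24. CENPT rose in CTRL cells while it fell at 48 h in inducible cells, and the part that the overlapping genes on the other strand have in its counts was not tested.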

How the results depend on the processing

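The falls at 48 h kept their side in most settings. Of 32 members called in CTRL cells, leaving out 1 library gave 25 to 35, and the count in inducible cells was 38 under each of these fits, but the analysis of variance called 19 in CTRL cells. It also gave 0 and 1 in CTRL cells at 8 and 24 h, 4 and 2 in inducible cells at 8 and 24 h, 15, 4, 14 and 9 between the lines at 0, 8, 24 and 48 h, and 0 and 2 for the interaction at 8 and 24 h. One fit of all 24 libraries gave 5 in CTRL at 8 h, 9 and 10 in inducible cells at 8 and 24 h, and 2 and 3 for the interaction at 8 and 24 h. The GC offset gave 6 and 11 in CTRL at 8 and 24 h, 20 between the lines at 8 h, and 2 and 7 for the interaction at 8 and 48 h. DESeq2 and no filter each gave 2 in CTRL at 8 h and 2 for the interaction at 8 h, as did a minimum of 10 counts for the latter. Leaving out 1 library gave 1 to 3 in CTRL at 8 h, 2 to 6 at 24 h (2 without replicate 3 of CTRL at 0 h or at 24 h), 11 to 18 in inducible cells at 24 h, 7 to 18 between the lines at 8 h, and 1 to 11 and 1 to 6 for the interaction at 8 and 48 h (11 without replicate 3 of CTRL at 8 h, 6 without replicate 1 of CTRL at 48 h, and 1 without any 1 of the 6 libraries at 0 h). Blocking on the replicate number (replicate block), the interaction at 48 h gave 1 call in place of 3, and CTRL at 24 h gave 5 in place of 4, where ECT2 was added, and no other count moved over 1.5 times. In inducible cells at 8 h the GC offset reversed CDC25B (0.04), PLK1 (0.02), INCENP (0.02), KIF11 (-0.05) and CKAP2 (-0.10, adjusted p = 0.00399 by edgeR). The cause of these differences was not tested. Without replicate 3 of CTRL at 8 h, the interaction at 8 h called 1197 of all 16645 genes. Library totals in place of TMM gave 22 lower and 2 higher in CTRL cells at 48 h. In simulated counts without a deviation along GC share, 14% of 1.2-fold changes were recovered for CTRL cells at 48 h and 40% for the interaction at 24 h.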
